A study of Mus musculus with 4 samples.

Results

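The cells named here natural killer (NK) and T cells of the injured mouse sciatic nerve were a group of 55 cells. They came from the 2281 cells kept from the nerve collected 3 days post-injury (DPI), or 2.41% of them (exact Clopper-Pearson 95% interval 1.82 to 3.13). The 55 were chosen by their counts, and the name follows that choice. Of these cells, 12 carried no UMI of the CD3 or NK receptor genes that divide the group below. A cell was a member when its barcode held at least 200 genes and at most 10% mitochondrial unique molecular identifiers (UMIs, each standing for 1 captured mRNA molecule), at least 2 summed UMIs of Trbc1, Trbc2, Cd3g, Cd3d, Nkg7, Ncr1, Xcl1, Klrb1c and Gzma, and no UMI of Pdgfra, Pecam1, Sox10, Csf1r or Fcgr1, which mark mesenchymal, endothelial, Schwann and macrophage cells. The levels of these 14 genes therefore describe the choice and are no result. All nerves came from wildtype CD1 mice and were profiled by Drop-seq, which counts mRNA by its 3′ end, so that levels do not scale with gene length. The 3 DPI library was made from distal sciatic nerve of adults after a segment of the nerve had been resected on 1 side, and the uninjured library from adult sciatic nerve. Both were cleared with myelin removal beads, as was a neonatal library of postnatal day 2 to 3, while a neonatal library of postnatal day 3 to 4 was sorted by fluorescence-activated cell sorting (FACS). There was 1 library per condition, and the number of animals pooled in each was not stated. No test between conditions was possible, cells are not replicates, and all intervals cover counting error only.

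T cells recognise peptides through an antigen receptor, whose constant chains are encoded by Trac, Trbc1 and Trbc2 and whose signal is carried into the cell by the CD3 chains. NK cells are innate lymphocytes that weigh activating against inhibitory surface receptors, and kill target cells with granzymes and perforin. Both are known to enter peripheral nerve after injury together with macrophages and monocytes, and both release cytokines and chemokines that act on those cells.

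The division of the members described below used the CD3 genes Cd3d, Cd3e and Cd3g against the NK receptor genes Ncr1, which encodes the activating receptor NKp46, and Klrb1c, which encodes NK1.1. The promoter sequences of a CD3 pair and of the NK receptor pair are shown because these genes set the division. Each is the 250 bases before the gene's start, written 5′ to 3′ on the gene's strand, from RefSeq on build GRCm38.p6. Capitals mark matches, on either strand, to the letters TGTGGT (read by RUNX factors), GGTGTG (T-box factors such as Tbx21 and Eomes) and GGAAGT (ETS factors).
Cd3d: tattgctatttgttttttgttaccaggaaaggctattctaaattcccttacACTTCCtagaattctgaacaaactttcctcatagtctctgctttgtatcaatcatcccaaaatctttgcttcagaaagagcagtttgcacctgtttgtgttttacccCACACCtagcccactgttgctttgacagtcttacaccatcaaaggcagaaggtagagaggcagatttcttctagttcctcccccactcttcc
Cd3e: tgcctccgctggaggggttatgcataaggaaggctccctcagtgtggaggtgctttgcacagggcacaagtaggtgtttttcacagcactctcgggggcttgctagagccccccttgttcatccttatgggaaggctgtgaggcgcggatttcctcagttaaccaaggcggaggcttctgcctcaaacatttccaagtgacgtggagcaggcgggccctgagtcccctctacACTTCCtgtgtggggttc
Ncr1: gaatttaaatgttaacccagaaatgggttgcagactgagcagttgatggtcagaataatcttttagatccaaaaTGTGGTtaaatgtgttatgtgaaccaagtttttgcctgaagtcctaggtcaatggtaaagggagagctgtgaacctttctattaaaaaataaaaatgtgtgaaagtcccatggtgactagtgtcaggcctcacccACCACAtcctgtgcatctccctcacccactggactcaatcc
Klrb1c: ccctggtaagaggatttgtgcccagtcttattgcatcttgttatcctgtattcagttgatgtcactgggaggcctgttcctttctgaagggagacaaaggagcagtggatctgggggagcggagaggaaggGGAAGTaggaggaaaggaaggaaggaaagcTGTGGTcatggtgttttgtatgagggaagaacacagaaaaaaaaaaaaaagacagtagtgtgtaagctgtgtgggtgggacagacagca
The window of Cd3d lay at chr9:44981536-44981785 on the plus strand, that of Cd3e at chr9:45009612-45009861 on the minus strand, that of Ncr1 at chr7:4337465-4337714 on the plus strand and that of Klrb1c at chr6:128788642-128788891 on the minus strand. Cd3g starts on the opposite strand from Cd3d, with 854 bases between the windows of this gene pair, and its window held none of the 3 motifs. Ncr1 held the RUNX letters at 2 places and Klrb1c at 1, whereas the windows of the CD3 genes held none. Of all 27025 genes with a promoter in the table, 14.2% held the RUNX letters, 16.2% the T-box letters and 20% the ETS letters. A match of letters is a description of the sequence and does not show binding.

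The members were small libraries. They held 60471 UMIs in all, with a median of 888 UMIs (280 to 6018) and 563 genes (236 to 2330) per cell, against a median of 1928 UMIs in the 2226 other kept cells. For comparison, 234 macrophage/monocyte cells were taken as those with at least 2 UMIs of macrophage genes and none of the 9 lymphoid genes or of Pdgfra, Pecam1 and Sox10, and they had a median of 1248 UMIs. Mesenchymal, endothelial and Schwann cells were those with a UMI of Pdgfra, Pecam1 or Sox10, no UMI of the other excluded genes and fewer than 2 lymphoid UMIs, and the 582 mesenchymal cells had a median of 4524 UMIs. The ribosomal protein genes took a median of 11.2% of a member's UMIs, against 6.05% in the other kept cells and 5.03% in macrophage/monocyte cells. The members carried a median of 5 UMIs of the 9 lymphoid genes (2 to 43), and 6 of them carried UMIs of 1 of these genes only. Just inside the limit were 3 cells with 2 such UMIs, and all 3 had a UMI of at least 1 of the leukocyte genes Ptprc, Cd52, Ptprcap and Coro1a. Just outside it were 14 cells with 1 such UMI and no UMI of the excluded genes, of which 5 had a leukocyte UMI. Another 6 cells with at least 2 lymphoid UMIs were left out for a UMI of Pdgfra or Pecam1. The deepest of these held 23879 UMIs, and another held 36 lymphoid UMIs beside 1 UMI of Pdgfra.

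Cells that passed the same rule were rarer in the other libraries (plot of the share by library). In the uninjured nerve they were 8 of 1945 kept cells (0.411%, 0.178 to 0.809), below the 3 DPI share with no overlap of the counting intervals. The neonatal libraries held 2 of 2306 (0.0867%, 0.0105 to 0.313) and 4 of 5736 (0.0697%, 0.019 to 0.178). Their files list only 5 and 6 of the 9 lymphoid genes, whereas both adult files list all 9, so the neonatal shares are read only within that limit. The median depth of kept cells was 1881 UMIs at 3 DPI and 1649 in the uninjured nerve. Summed over all kept cells, the 9 genes made up 78.6 UMIs per 1000000 (CPM) at 3 DPI (72.6 to 85, exact Poisson interval) and 14.2 CPM in the uninjured nerve (10.9 to 18.2). The cells that passed the rule held 83.3% of these UMIs at 3 DPI and 76.2% in the uninjured nerve. Since the same 9 genes made the rule, these sums largely restate the cell counts and are no separate support. More such cells and a larger share of them surviving dissociation cannot be told apart, and with 1 library each a difference between conditions and one between preparations cannot be told apart either. No member shared its barcode with a cell of another library.

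**Figure D1:**
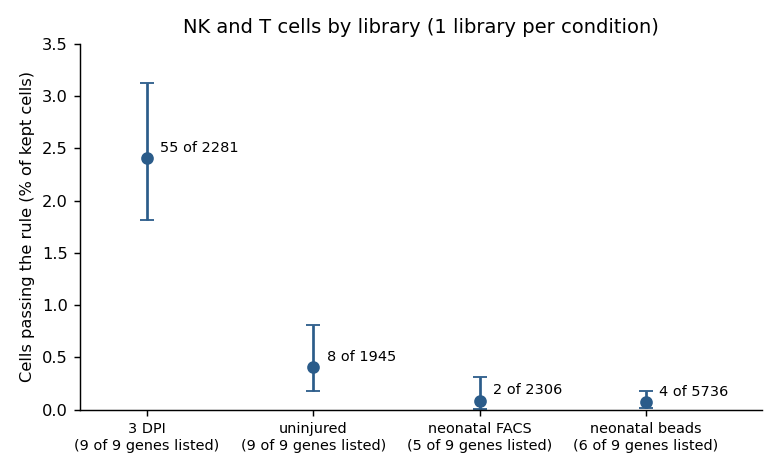
Share of kept cells that passed the rule for NK and T cells (vertical axis, %) in each of the 4 libraries (horizontal axis, with the number of the 9 lymphoid genes its file lists). Points are shares and bars exact 95% counting intervals. The 3 DPI share of 2.41% stood above the uninjured share of 0.411%, and both neonatal shares were below 0.1%.

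The 8 uninjured cells were set beside the members for genes outside the rule. Cd52, which encodes a surface glycoprotein of lymphocytes, was found in 7 of the 8 cells (2367 CPM) and in 42 of the 55 members (2381 CPM). Ptprcap was found in 4 of 8 cells (1041 CPM) and in 32 of 55 (1158 CPM). Ccl5, a chemokine stored by cytotoxic lymphocytes, stood lower, in 3 of 8 cells (37.5%, 8.52 to 75.5) at 1799 CPM and in 27 of 55 members (49.1%, 35.4 to 62.9) at 5011 CPM. Ms4a4b, a membrane protein of T and NK cells, was found in 1 of 8 cells (94.7 CPM) and in 27 of 55 members (1356 CPM), and Thy1 in 0 of 8 and 19 of 55. The intervals of the shares of cells overlap between the adult libraries for each of these 5 genes, and with 8 cells only large differences could have been seen.

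Next, the genes that set the members apart within the 3 DPI nerve were ranked by the ratio of their CPM to that in all other kept cells, with the 14 rule genes left out and a UMI required in at least 10% of members. The 30 leading genes were nearly all known from NK and T cells. They fell into NK receptor genes (Klre1, Klrc1, Klra7, Klra4, Klra1, Klrk1, Klrd1, Klrg1), genes of T cell receptor and costimulatory signalling (Sh2d1a, Sh2d2a, Lck, Cd2, Icos, Cd226, Cd7, Trac), transcription factors (Ikzf3, Eomes, Tbx21), cytotoxic effectors (Fasl, Ctsw), signalling receptors and ligands (Il18r1, Il2rb, Ltb, Cxcr6) and other lymphocyte genes such as Ptprcap, Ms4a4b and Gimap7. This grouping was made after the genes had been ranked. Since members were selected on lymphoid genes, such a ranking describes the group and is no test of its identity.

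The leading gene with the highest level was Ms4a4b, with 82 UMIs in 27 members (1356 CPM). It was found in 2.99% of macrophage/monocyte cells and 0.859% of mesenchymal cells, in spite of their greater depth. Ptprcap, which encodes a protein associated with the phosphatase CD45, had 70 UMIs in 32 members (1158 CPM, 902 to 1463), against 4.67 CPM in macrophage/monocyte cells and 2.9 CPM in all other kept cells. Ltb, the ligand subunit lymphotoxin beta, had 43 UMIs in 25 members (711 CPM, 515 to 958) and 3.53 CPM in the other kept cells, a ratio of 201 (122 to 337). Sh2d1a, the adaptor SAP of T and NK cell receptors, ranked first with 13 UMIs in 9 members and 1 UMI in 1 of the other cells, a ratio of 1704 whose interval ran from 256 to 72433. The size of the first ratios therefore rests on 1 or a few UMIs in the comparison cells, and the order of their neighbours in the ranking is not resolved.

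Any of the 30 leading genes was found in 54 of the 55 members, with a median of 10 UMIs (0 to 54) per member. Any was found in 9.83% of macrophage/monocyte cells, 6.53% of mesenchymal cells, 4.17% of endothelial cells and 3.85% of Schwann cells. The member without one had neither a CD3 nor an NK receptor UMI. The 30 genes were picked from these same cells for such a contrast, so these shares describe the choice and are no support. The Klra genes encode the Ly49 receptors, a family of near-identical copies, so the split of UMIs among Klra1, Klra4 and Klra7 is uncertain.

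**Figure D2:**
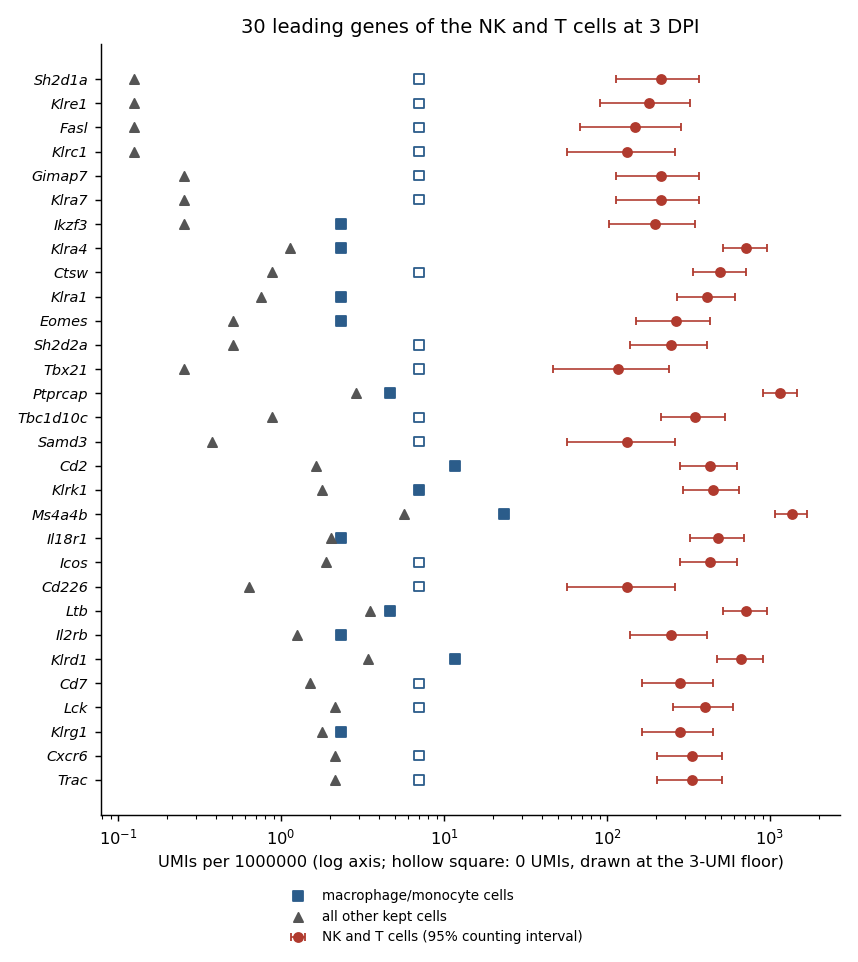
Level of the 30 leading genes (vertical axis, in rank order) in UMIs per 1000000 on a log axis, in the 55 NK and T cells (circles with 95% counting intervals), 234 macrophage/monocyte cells (squares) and all 2226 other kept cells (triangles). Hollow squares are genes with 0 UMIs, drawn at the floor of 3 UMIs over the class (7.01 CPM). All 30 circles lie to the right of both other marks, and the ranking fixed this for the triangles.

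Across the whole table, a gene was called higher when its CPM was at least 4 times that of the other cells, with at least 5 UMIs in at least 3 members. Of 12979 genes with at least 20 UMIs in the kept cells, 338 (2.6%) were higher than in all other kept cells, and 291 (2.24%) than in macrophage/monocyte cells. The overlap was 176 genes, which was 52.1% of the first set and 60.5% of the second. The median ratio over all genes tested was 0.573. Several leading genes, Sh2d1a among them, had too few UMIs in the nerve to be counted here.

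Of 18 genes of T cell signalling, all were found and 11 could be counted, of which 10 were higher with a median ratio of 131. Lck, the kinase that starts T cell receptor signalling, had 24 UMIs in 15 members (397 CPM) and 2.14 CPM in the other kept cells. Icos, a costimulatory receptor, had 26 UMIs in 15 members. Skap1, an adaptor for integrin activation, had 17 UMIs in 12 members. Trac had 20 UMIs in 10 members, and all 10 also had a CD3 UMI. The exception was Thy1, whose 33 UMIs in 19 members (546 CPM) compared with 432 CPM in the other kept cells, a ratio of 1.26 (0.867 to 1.78), and which was found in 64.8% of mesenchymal cells.

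The genes that tell T cell subsets apart were sparse. Cd4 and Cd8a were each found in 2 members, and no member had both. Cd8b1 was found in 2 members and Foxp3 in 1. Gata3, a transcription factor of type 2 helper and innate lymphoid cells, had 13 UMIs in 9 members (215 CPM, 114 to 368), and Il2ra, the high-affinity receptor chain for interleukin-2, had 14 UMIs in 4. Genes of the gamma and delta receptor chains were found in 13 members, of which 5 had a CD3 UMI. Tcrg-C2 and Trdv4 led these with 6 UMIs in 5 members and 4 UMIs in 4, although reads of the similar Tcrg-C genes cannot be told apart with certainty, nor can those of Trbc1 and Trbc2. With 2 members at Cd4 and 2 at Cd8a, the depth did not allow members to be assigned to subsets.

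All 20 NK receptor genes that the file lists were found in the members, and 7 of the 8 that could be counted were higher than in all other kept cells with a median ratio of 84.4, against 5 when set against macrophage/monocyte cells. Klra4 had 43 UMIs in 13 members (711 CPM, 515 to 958), Klrd1, which encodes the CD94 chain of inhibitory and activating receptors, had 40 UMIs in 19 members (661 CPM, 473 to 901), and Klrk1, which encodes NKG2D, had 27 UMIs in 16. Tyrobp and Fcer1g, the adaptors DAP12 and FcRγ through which NK receptors signal, had 39 UMIs in 22 members and 33 in 23. Myeloid cells use the same adaptors, and in macrophage/monocyte cells these genes stood higher, at 1492 and 1128 CPM against 645 and 546 CPM in the members. Fcgr3, which encodes the antibody receptor CD16, had 1 UMI in 1 member.

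Of 16 cytotoxic genes, 15 were found and 6 of 11 counted were higher, with a median ratio of 8.91. Ctsw, a protease of cytotoxic granules, had 30 UMIs in 18 members and 0 in macrophage/monocyte cells. Gzmb had 40 UMIs in 6 members, of which 23 lay in 1 cell. Prf1, the pore-forming perforin, had 9 UMIs in 5 members, and Fasl, the death receptor ligand, 9 UMIs in 6. Srgn, the proteoglycan that packs granules, was found in 27 members (1075 CPM, 829.6 to 1370), with 829 CPM in macrophage/monocyte cells. Serpinb9 and Serpinb6b, inhibitors that protect cells from their own proteases, had 24 UMIs in 10 members and 23 in 11. Tnfsf10 was at 0 in the members, and the exact upper limit of its level was 61 CPM.

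Among transcription factors, 6 of 13 counted were higher. Id2, a regulator needed for innate lymphoid cells, had 63 UMIs in 27 members (1042 CPM, 801 to 1333), a ratio of 14 to the other kept cells, while macrophage/monocyte cells had 455 CPM. Eomes and Tbx21, the T-box factors of NK and cytotoxic T cells, had 16 UMIs in 9 members and 7 UMIs in 6. Ets1 had 32 UMIs in 19 members. Zeb2 was lower in the members (99.2 CPM, 36.4 to 216) than in macrophage/monocyte cells (743 CPM). Of the 30 leading genes, 16 matched the RefSeq promoter table, and 6 of those windows held the RUNX letters, 3 the T-box letters and 6 the ETS letters, beside the 14.2%, 16.2% and 20% of all promoters given above.

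The chemokine and cytokine genes gave 1 abundant member and many that were scarce. Ccl5 had 303 UMIs in 27 members (5011 CPM, 4462 to 5608), with a median of 5 UMIs and a range of 1 to 50 UMIs in those cells. Its level was 49 CPM in macrophage/monocyte cells and 35.1 CPM in all other kept cells, a ratio of 143 (121 to 169). It was found in 2.99% of macrophage/monocyte cells and, after thinning to 500 UMIs, which left out 10 members and 9 mesenchymal cells of lower depth, in 46.7% of 45 members and 1.05% of 573 mesenchymal cells. Ccl4 had 15 UMIs in 5 members (248 CPM, 139 to 409) and Ccl3 4 UMIs in 3 (66.1 CPM, 18 to 169), and macrophage/monocyte cells had 392 and 249.9 CPM. Ifng, the chief macrophage-activating cytokine of NK and T cells, had 2 UMIs in 2 members (33.1 CPM, 4.01 to 119). Il17a had 6 UMIs, all in 1 member that had a CD3 UMI, Il5 had 4 UMIs in 2 members, and Tnf, Csf2, Il2, Il10 and Areg were at 0. Of 14 genes of this list that could be counted, 6 were higher, with a median ratio of 2.

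The study assembled 143 ligands found in cells of the injured nerve, and 60 of them were found in the members. At the threshold of 2% of cells, which is 2 members, 33 were found, and 12 were found in at least 5 members. The first count rose to between 50 and 58 under 4 other settings of the rule or filter, in 3 of which 1 cell met the threshold. Of the 5 classes compared, the members had the highest share of cells for 8 ligands. These were Ccl5 (49.1%), Ltb (45.5%), Gmfg (23.6%), Sema4d (18.2%), Sema4a (9.09%), Il16 (7.27%), Bmp2 (5.45%) and Tnfsf14. The last 2 rest on 3 members each, and pericytes were not among the classes compared. Mif and Fstl1 were also found in 16 and 13 members, but in a larger share of mesenchymal cells (47.3% and 97.8%), which were deeper. For Fstl1, a gene of mesenchymal cells, the members' 496 CPM stood beside 513 CPM of Col1a1, a collagen that lymphocytes lack, and the part of RNA from other cells in such ligands was not tested. Of 136 ligands counted, 8 were called higher (2.6% of all genes tested were), and their median ratio to the other kept cells was 0, since most ligands were found in no member.

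Receptors of cytokines were well represented. Il2rg, the chain shared by receptors of several interleukins, had 38 UMIs in 22 members, and Il18r1 and Il18rap, both chains of the interleukin-18 receptor, had 29 UMIs in 17 members and 13 in 13. Il7r had 26 UMIs in 12 members and Il2rb 15 in 11. Ifngr1 was found in 22 members. In all, 7 of 13 counted receptors were higher, with a median ratio of 8.46. Il18 was at 0 in the members and at 44.4 CPM in macrophage/monocyte cells, and Il15 at 0 and 11.7 CPM. Of the classes compared, the highest share of cells with Il18 was in mesenchymal cells (8.59%) and with Il15 in endothelial cells (8.33%). Both classes were deeper than the macrophage/monocyte cells.

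Of 17 genes of homing and adhesion that were counted, 10 were higher, with a median ratio of 8.27. Ccr2, the receptor of Ccl2 and Ccl7, was the most abundant chemokine receptor, with 55 UMIs in 27 members (909.5 CPM, 685 to 1184), and macrophage/monocyte cells had 1394 CPM. Cxcr6, the receptor of Cxcl16, had 20 UMIs in 11 members and none in macrophage/monocyte cells, which carried Cxcl16 itself at 154 CPM. Cxcr3 had 6 UMIs in 5 members. Selplg, the selectin ligand used for entry into tissue, had 22 UMIs in 17. Ccr7 and Itgae, genes of lymph node homing and of epithelial residence, had 1 UMI each, and Ccr6 was at 0.

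Activation genes were mixed. Cd69, an early activation and residence marker, had 16 UMIs in 8 members and none in macrophage/monocyte cells. Tnfrsf4 and Tnfrsf18, costimulatory receptors of activated T cells, had 13 UMIs in 4 members and 14 in 8. The immediate-early gene Fos was lower in the members (744 CPM, 543 to 996) than in the other kept cells (1519 CPM), and Junb was 893 CPM against 680.0 CPM, a ratio of 1.31 (0.985 to 1.72). Of the inhibitory receptors, Pdcd1 was found in 3 members, Tigit in 5 and Lag3 in none. In all, 3 of 9 counted genes were higher, with a median ratio of 1.31.

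Genes of the leukocyte cell surface and cytoskeleton were shared with macrophage/monocyte cells. Of 12 such genes, 11 were higher than in all other kept cells, with a median ratio of 17.9, and 2 were higher than in macrophage/monocyte cells. Ptprc, which encodes CD45, was found in 35 members (1339 CPM, 1064 to 1665) with 397 CPM in macrophage/monocyte cells, and Coro1a, an actin regulator, in 33 members (1108 CPM, 859 to 1407) with 465 CPM.

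Of 14 interferon-response genes, 5 were called higher than in the other kept cells, and their median ratio was 4.3. Ly6e had 77 UMIs in 30 members (1273 CPM) against 489 CPM, a ratio of 2.6. Isg15 had 17 UMIs in 6 members. Of 9 genes of antigen presentation, 3 were called higher, and those of class I were abundant. B2m had 419 UMIs in 53 members (6929 CPM, 6281 to 7625) against 3604 CPM in macrophage/monocyte cells and 1841 CPM in all other kept cells, and H2-D1 and H2-K1 had 5143 and 3291 CPM. Class II genes had at most 2 UMIs each. Cd74, the class II chaperone, had 2 UMIs in 2 members (33.1 CPM, 4.01 to 119) against 5395 CPM in macrophage/monocyte cells, and H2-Aa had 2 UMIs against 2644 CPM.

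Cycling members were few. Mki67 or Top2a was found in 6 of 55 members (10.9%, 4.11 to 22.2), of which 2 had a CD3 UMI and 2 an NK receptor UMI. The other kept cells had 14.6%, and after thinning to 500 UMIs the shares were 4.44% (2 of 45 members) and 6.32%. Pcna, a replication gene, had 31 UMIs in 12 members, of which 14 lay in 1 cell, and it was the only one of the 10 proliferation genes called higher than in the other kept cells (513 CPM, ratio 4.62). Without that cell it was 312 CPM with a ratio of 2.81, and the call was lost. The deepest member, with 6018 UMIs, carried Mki67 and Top2a.

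Markers of other cell types were checked in the members beyond the 5 genes of the rule. Lyz2, the most abundant of the macrophage markers, was found in 5 members with at most 2 UMIs each (99.2 CPM, against 12944 CPM in macrophage/monocyte cells), and Cd68, C1qc, Ms4a7 and Mrc1 were at 0. Ly6c2, also expressed by some lymphocytes, had 27 UMIs in 5 members. The B cell genes Cd79a, Cd79b and Ms4a1 and all 7 dendritic cell genes were at 0, and 2 of the 6 neutrophil genes were found, in 2 members. Ighm or Igkc, the immunoglobulin chains, were found in 3 members. Of the 5 mast cell genes, Cma1 was found in 4 members and Cpa3 in 1. Any of 6 mesenchymal genes was found in 47 members, against 95.5% of the other kept cells, and Col1a1 in 20 members at 513 CPM against 6568 CPM. Any of the 5 Schwann genes was found in 6 members, any of the 5 endothelial genes in 5 and any of the 4 hemoglobin genes in 16. Of the pericyte genes, 30 UMIs of Rgs5 and 37 of Acta2 lay in 1 member with 3694 UMIs, which also had 23 lymphoid UMIs. The part of RNA from other cells in the low values was not tested.

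The members also resembled each other in genes that the rule did not use. Each kept cell's log-normalized profile over 11762 genes, without the rule genes, was correlated with the mean of each class, and a cell was left out of the mean of its own class. The median Pearson r of members was 0.452 (0.312 to 0.623) with the other members, 0.357 with macrophage/monocyte cells, 0.358 with endothelial, 0.328 with Schwann and 0.319 with mesenchymal cells. The members' own mean was the closest for 54 of 55 (98.2%), and the exception was the cell rich in Rgs5 and Acta2, which was closest to the endothelial mean. All 55 had a higher r with the members than with macrophage/monocyte cells, whereas 3 of 234 macrophage/monocyte cells did. Of the genes that chose the macrophage/monocyte cells, only those of the member rule were left out. That split is therefore partly set by how the comparison class was chosen. Of the 14 cells with 1 lymphoid UMI and no excluded gene, 7 were closest to the members. So were 3 of the 6 cells with at least 2 lymphoid UMIs that were left out for an excluded gene. A total of 44 cells outside the rule were closest to the members, of which 8 had 1 lymphoid UMI and 26 had at least 2 UMIs of the leading genes. Among the 44, Cd52 was found in 24 and Ptprc in 15, but Col1a1 was found in 18, Cd74 in 15 and H2-Aa in 14. Closeness to the members' mean therefore did not single out NK and T cells. These correlations are across genes, share a library and depend on depth, and they are given as a description.

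**Figure D3:**
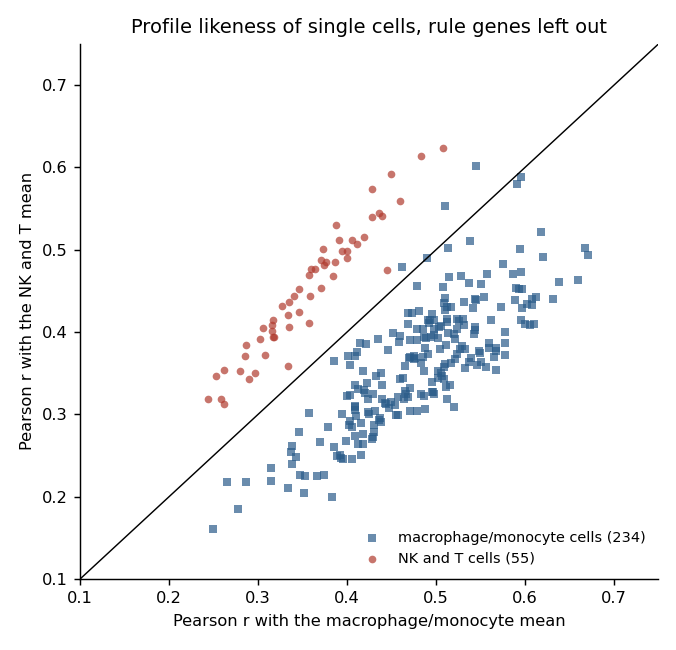
Pearson correlation of single cells with the macrophage/monocyte mean (horizontal axis) and with the NK and T mean (vertical axis), without the rule genes. Other genes that chose the macrophage/monocyte cells were not left out. The line marks equal values. All 55 NK and T cells (circles) lie above it and all but 3 of the 234 macrophage/monocyte cells (squares) do not.

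Finally, the members were divided by their CD3 and NK receptor UMIs. A CD3 UMI without an NK receptor UMI was found in 19 members (34.5%, 22.2 to 48.6), an NK receptor UMI without a CD3 UMI in another 19, both in 5 (9.09%, 3.02 to 20) and neither in 12 (21.8%, 11.8 to 35). Of the genes of the division, Cd3d, Cd3g, Ncr1 and Klrb1c also belonged to the rule that chose the members. These shares therefore partly describe that choice and do not measure the balance of T and NK cells in the nerve. A missing UMI in a cell of this depth does not show a missing transcript. When the 45 members with at least 500 UMIs were thinned to 500, a CD3 UMI was found in 31.1% in place of 43.6%. The median depth was 1013 UMIs in the CD3 division and 843 in the NK receptor division. The deepest cell held 6018 of the 22635 UMIs of the CD3 division. In the NK receptor division the deepest was the cell rich in Rgs5 and Acta2, with 3694 of 21353 UMIs. Levels of a division are summed over its cells and include these 2. The map of UMIs by cell shows each member.

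**Figure D4:**
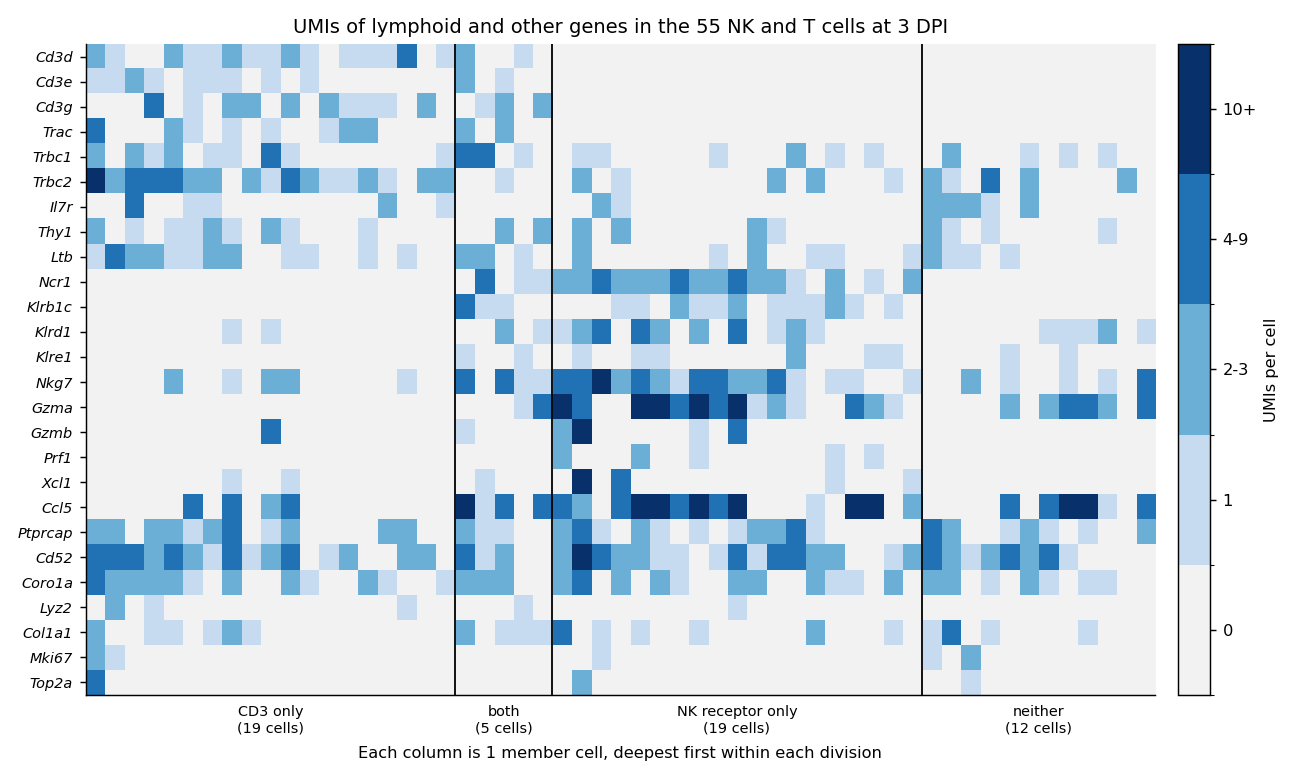
UMIs of 26 genes (rows) in each of the 55 NK and T cells (columns), grouped by the division and ordered by depth, with shade for the number of UMIs. Cd3d, Cd3e, Cd3g, Ncr1 and Klrb1c set the division. Ccl5 has UMIs in 13 of the 19 cells of the NK receptor division and in 4 of the 19 of the CD3 division, while Cd52 is spread over all divisions.

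Of 20 NK receptor genes that set neither the rule nor the division, 9 were higher in the NK receptor division with an interval above 1, none was higher in the CD3 division, and 11 were not resolved. The share of all genes with such an interval between the divisions was not computed. The counts by list, here and below, are therefore a description without that background. Of 15 cytotoxic genes, 5 were higher in the NK receptor division and 10 were not resolved. Of the 5, Gzmb and Serpinb6b had most of their UMIs in 1 cell each. Klrd1 had 27 UMIs in 10 cells against 2 in 2, a ratio of 14.3 (3.6 to 124). Klra4 had 35 UMIs in 9 cells against 1 UMI, and Tyrobp 25 UMIs in 14 cells against 1, with ratios of 37.1 (6.24 to 1507) and 26.5 (4.34 to 1088). Fcer1g had 20 UMIs against 1, and Il2rb, the interleukin-2 and interleukin-15 receptor chain, 13 against 1. Ccl5 had 184 UMIs in 13 cells (1 to 38 UMIs each) and 14 UMIs in 4 CD3 cells (2 to 4 each), a ratio of 13.9 (8.09 to 26). Prf1 and Eomes had 9 UMIs each, in 5 cells each, and 0 in the CD3 cells, so that each was at least 3.18-fold higher against a floor of 3 UMIs over the division, with an exact lower limit of 2.09. Gzmb gave 31 UMIs in 4 cells, of which 23 lay in a single cell, against 8 UMIs in 1 CD3 cell. Serpinb6b had 16 UMIs in 5 cells, of which 11 lay in a single cell, against 1 UMI. The granule gene Srgn was not resolved, with 21 UMIs against 29 in the CD3 cells, nor was Lamp1, with 4 against 6, or the chemokine gene Ccl4, with 5 against 8. Among the genes that chose the members, whose values are a description of that choice, Gzma had 126 UMIs in 14 of the 19 NK receptor cells (1 to 28 each) and 0 in the CD3 cells, and Nkg7 had 60 UMIs in 16 cells against 10 in 5.

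Of 17 genes of T cell signalling, 5 were higher in the CD3 division, none in the NK receptor division, and 12 were not resolved. Trac had 15 UMIs in 8 of 19 cells and 0 in the NK receptor cells, and was at least 4.72-fold higher against the same floor, with an exact lower limit of 3.38. Icos had 22 UMIs in 12 cells against 2 in 2, a ratio of 10.4 (2.55 to 91), and Cxcr6 14 UMIs in 8 cells against 2 in 1, a ratio of 6.6 (1.52 to 59.9). Cd69 had 13 UMIs against 2 and Itgb7, an integrin chain of tissue lymphocytes, 12 against 2. Lat, the scaffold under the T cell receptor, had 10 against 1. Of the genes that chose the members, Trbc2 had 50 UMIs in 17 cells against 10 in 5, and Trbc1 18 UMIs against 7. In all, 14 of the 24 members with an NK receptor UMI had a Trbc1 or Trbc2 UMI. These 24 include the 5 members that also had a CD3 UMI, of which 2 had a Trac UMI. Among the 19 of the NK receptor division, Trbc1 was found in 6, Trbc2 in 5 and Trac in none.

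Several genes of lymphocytes in general were not resolved between the divisions, and others were. Cd52 had 56 UMIs in 15 CD3 cells and 54 in 16 NK receptor cells, a ratio of NK receptor to CD3 cells of 1.02 (0.69 to 1.51). Ptprcap gave 0.856 (0.458 to 1.58), Coro1a 1.1 (0.605 to 2.02), H2-D1 0.961 (0.733 to 1.26) and Id2 1.14 (0.498 to 2.64). B2m was somewhat higher in the CD3 cells, at 178 against 125 UMIs, a ratio of 1.34 (1.06 to 1.7), as was H2-K1, at 86 against 56 UMIs, a ratio of 1.45 (1.02 to 2.07). Rac2, a GTPase of blood cells, had 33 against 15 UMIs, a ratio of 2.08 (1.1 to 4.11), and Ltb 22 against 9 UMIs, a ratio of 2.31 (1.02 to 5.69). Ms4a4b was higher in the NK receptor cells, at 36 against 19 UMIs, a ratio of 2.01 (1.12 to 3.71). These intervals treat UMIs of a division as independent, although they come from 19 cells each.

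**Figure D5:**
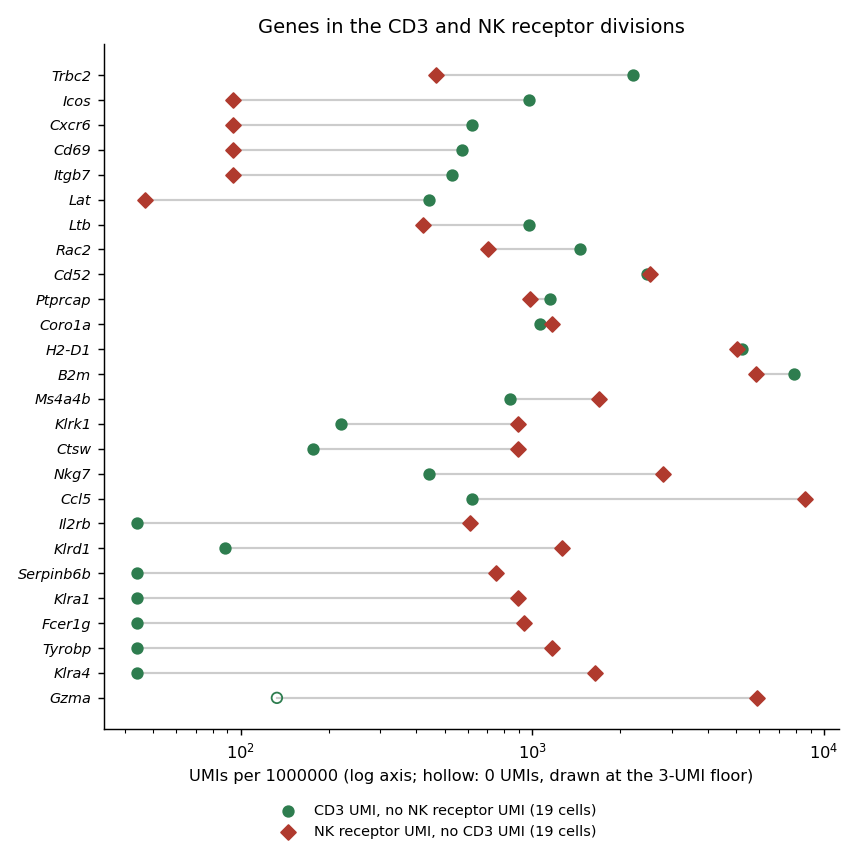
Level of 26 genes in UMIs per 1000000 (log axis) in the 19 members with a CD3 UMI only (circles) and the 19 with an NK receptor UMI only (diamonds). The hollow circle is Gzma, with 0 UMIs in the CD3 division, drawn at the floor of 3 UMIs. Trbc2, Nkg7 and Gzma were among the genes that chose the members. Icos and Cxcr6 lie to the right in the CD3 division and Klra4 and Tyrobp in the NK receptor division, while the marks of Cd52 and H2-D1 nearly coincide.

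The 5 members with UMIs of both sets had 66 Ccl5 UMIs in 4 cells, of which 50 lay in 1, and 8 Gzma UMIs in 2. The 12 members with neither separated without overlap. Of these, 6 had a UMI of Klrd1, Gzma or Ccl5, and the other 6 a UMI of Il7r, Gata3 or Il1rl1, the last being the receptor for interleukin-33. No cell had UMIs of both sets. The genes of these sets were picked after the cells had been seen, so this is a description. Gzma was also among the genes that chose the members, and it was found in 6 of the 12. The split therefore partly restates how these cells passed the rule. Il7r had 11 UMIs in 5 of the 12, Gata3 8 UMIs in 4 and Il1rl1 6 UMIs in 4, and Id2 had 32 UMIs in 9 of the 12 (2746 CPM). Il33 itself was found at 307 CPM in the other kept cells and at 196 CPM in macrophage/monocyte cells. Its highest share of cells among the classes compared was in mesenchymal cells (54.1%). Trbc2 was found in 5 of the 12, and none of them can be called an NK or a T cell from the CD3 and NK receptor genes.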

How the data were processed

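Drop-seq cells of the mouse sciatic nerve were analysed in 4 libraries, of which that at 3 DPI held the members. The authors made digital gene expression matrices with the Drop-seq pipeline and deposited raw UMI counts per gene and barcode, and the genome build given in the submitters' processing notes is mm10. No aligner version was stated. Cells were not clustered, and counts were summed per class, except that likeness between cells used depth-scaled log values. Barcodes with at least 200 genes and at most 10% mitochondrial UMIs were kept, and members were found by the rule given in the report. The members and gene lists were chosen with earlier results of these data known. Levels are UMIs summed over a class per 1000000 UMIs (CPM) with exact Poisson intervals, ratios have exact conditional binomial intervals, and shares have Clopper-Pearson intervals, all at 95%. A class at 0 took a floor of 3 UMIs. Named genes were the 30 with the highest ratio found in at least 10% of members, and those described by list. Doublets were not removed: scrublet called 0.438% of kept 3 DPI cells, too few for it to have worked, and no member. Sequences came from the RefSeq table. Python 3.11.15, scipy 1.17.1 and scanpy 1.11.5 were used, and the ratio, interval and likeness steps were tested on simulated data. The alternatives were stricter or looser rules and filters, removal of the highest doublet scores, and thinning to 500 UMIs. Alternatives without the deepest member or the member richest in pericyte genes were chosen after seeing the data.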

Additional observations from a re-analysis of the deposited data

How the results depend on the processing

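Of 93 values of the main results recomputed under the alternatives, 85 stayed within the counting interval or within 1.5 times the count given. A minimum of 500 genes left 33 members, or 1.84% of the kept cells (1.27 to 2.57). Requiring 2 different lymphoid genes, a minimum of 500 genes, no excluded genes or 6 more excluded genes gave 57, 56, 58 and 50 ligands found in at least 2% of members, against 33. With 49, 33 and 49 members in 3 of these settings 2% was 1 cell in place of 2, while keeping the 6 excluded cells left it at 2 cells. The share of members closest to the other members was 100% with 6 more excluded genes and without the member richest in pericyte UMIs. Requiring 10 UMIs in 5 members called 168 genes higher in place of 338. The uninjured share ranged from 0.206% to 0.514%, below the 3 DPI share under each alternative (1.84% to 2.67%). Removing the highest scrublet scores took out no 3 DPI member and 4 of the 8 uninjured cells. Of 990 gene levels recomputed, 934 stayed within their interval, and 31 of the 56 that did not came from keeping the 6 cells with an excluded gene. No paired analysis was possible because each condition has 1 library and no result comes from a test between samples.

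Depth limits these results. For a gene at 0 in the members the exact upper limit of the level was 61 CPM, and a count of 0 in 55 cells limits the share of cells with a UMI, not of cells that express the gene, so scarce cytokines and subset genes cannot be called absent.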
